A study of Danio rerio with 14 samples.

Results

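Open chromatin of adult zebrafish heart muscle cells was examined at the peaks that the authors' annotation leaves without a gene. The peaks came from 2 deposited ATAC-seq tables, one of sorted and junb-overexpressing cardiomyocytes (the zebrafish_CM table) and one of A-Fos cardiomyocytes (the A-Fos table). A peak was taken when its gene field was empty and it did not lie on the mitochondrial genome. This gave 8331 of the 16610 peaks of the zebrafish_CM table and 2220 of the 6339 peaks of the A-Fos table, 10551 of 22949 in all. They made up 50.2% and 35.03% of the nuclear peaks of the respective table. They are called distal peaks here, because no gene start listed in either table lay within 5000 bp of any of their centres.

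ATAC-seq marks DNA that the Tn5 transposase can reach, which in most cells means promoters and the enhancers that act on promoters from a distance. AP-1, a dimer of Fos and Jun family proteins, is a transcription factor known to bind mainly at such distal elements and to be induced by tissue injury. Zebrafish regrow heart muscle after injury from cardiomyocytes that partly lose their mature state and divide, and enhancers that open in this process are known.

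Each library was made from cardiomyocytes of a pool of 6 adult hearts. The zebrafish_CM table holds 4 groups of 2 libraries. The gata4:EGFP+ cells, from hearts at 4 days after cryoinjury, carry a reporter driven by gata4 regulatory sequence, which marks cardiomyocytes taking part in regeneration, and were sorted by fluorescence with 5000 cells per reaction. The myl7:nucDsRed+ cells, from uninjured hearts, carry a nuclear reporter under the heart muscle promoter myl7 and were sorted in the same way with 5000 cells. The junba OE and junbb OE cells, from uninjured hearts 7 days after induced overexpression of the AP-1 subunit genes junba or junbb in cardiomyocytes, were isolated on a density gradient with 50000 cells. The A-Fos table holds 3 A-Fos (+) and 3 A-Fos (-) libraries of 5000 gradient-isolated cells from the wound border at 4 days after cryoinjury. A-Fos is a dominant-negative Fos protein that blocks AP-1 from binding DNA. Transgenes were induced by injecting 4-hydroxytamoxifen at 0.5 mg/mL. By the column headers A-Fos (+) fish received this agent and A-Fos (-) fish the ethanol vehicle, so the agent and A-Fos cannot be told apart. The promoter of the A-Fos and junb transgenes is not given in the sources used here. Injured fish were males and females of 4 to 12 months. The gata4:EGFP+ and myl7:nucDsRed+ groups differ in reporter as well as in injury, and the junb groups differ from myl7:nucDsRed+ in isolation, cell number, reporter and induction as well as in the transgene, so these differences cannot be told apart.

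The deposited values count reads in each peak after the authors corrected for background, scaled by size factors and rounded, so they are compared within a table only and are called normalized values below. Their sum over nuclear peaks was 721040 to 952851 in the zebrafish_CM libraries and 291709 to 421003 in the A-Fos libraries, and from the spacing of the values the distal peaks of a library were estimated to rest on 240967 to 757467 and 66490 to 418192 reads. The fit of the spacing varied, with R2 of 0.367 to 0.989 and 0.259 to 0.980. It was poorest where the estimates were highest, in gata4:EGFP+ replicate 1 and A-Fos (-) replicate 1, so the upper ends are rough. The single mitochondrial peak, not among the distal peaks, held 72.0% to 87.9% and 79.9% to 94.2% of all signal. Peaks assigned to cardiomyocyte marker genes were present for 6 of 9 genes in the zebrafish_CM table, but only for myl7 in the A-Fos table.

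The distal peaks lay away from listed gene starts, and the lower limit of about 5000 bp follows from the annotation that left them without a gene. The median distance from a peak centre to the nearest of the 7468 listed gene starts was 52240 bp in the zebrafish_CM table and 52781 bp in the A-Fos table. The closest lay at 5088 bp and 5078 bp, 683 and 209 lay within 10 kb, and 2464 (29.6%) and 687 (30.9%) lay more than 100 kb away. Their centres fell inside the body of a listed gene for 2626 peaks (31.5%) and 577 peaks (25.99%). These are intronic or otherwise genic by the deposited gene positions. Genes without any assigned peak are not in these files, so true distances may be shorter and more of the peaks may be genic.

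Most distal peaks were narrow and low, and a small number were very wide. The median width was 261 bp against 322 bp for peaks with a gene in the zebrafish_CM table, and 245 bp against 263 bp in the A-Fos table. The median over peaks of the mean normalized value was 19.4 for distal and 36.5 for assigned peaks, and per 100 bp of peak it was 7.31 against 11.03. In the A-Fos table the corresponding medians were 22.2 against 32.5, and 8.88 against 12.2 per 100 bp. Distal peaks were thus lower also per length. They were 63.5% of the peaks under 200 bp in the zebrafish_CM table and 33.3% of those from 400 to under 800 bp. Among peaks of 2000 bp or wider the share turned: 163 of 175 (93.1%) were distal in the zebrafish_CM table and 166 of 176 (94.3%) in the A-Fos table. Of the distal peaks, 21 and 19 were 10 kb or wider, and the widest spanned 39955 bp and 24789 bp. The wide ones, a class set at 2000 bp after the widths were seen, were 1.96% and 7.48% of the distal peaks but held 27.05% and 58.06% of their summed length.

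**Figure D1:**
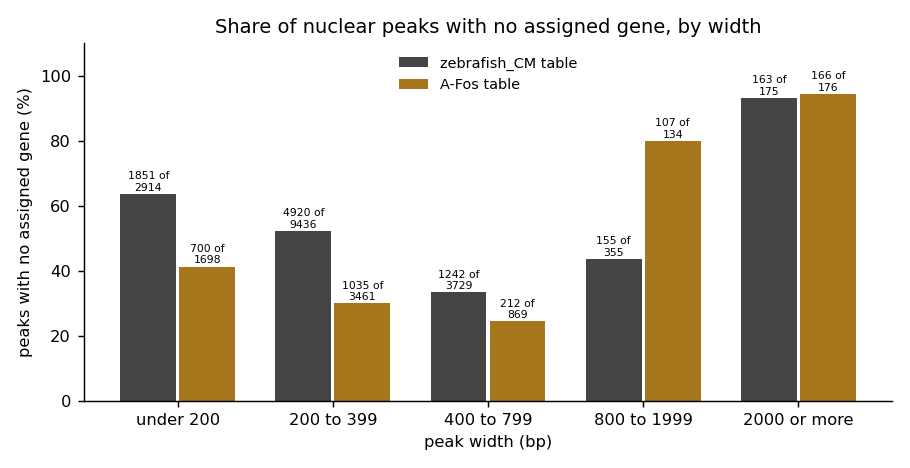
Bars give the percent of nuclear peaks with no assigned gene (vertical axis) in 5 classes of peak width in bp (horizontal axis) for both tables, with the number of distal peaks and of all peaks above each bar. In the zebrafish_CM table the share falls from 63.5% to 33.3% and then reaches 93.1% in the widest class, and in the A-Fos table the widest class is at 94.3%.

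The wide peaks were at the same places in both tables. With overlap counted from 50% of the shorter peak, all 166 wide distal peaks of the A-Fos table overlapped a wide one of the zebrafish_CM table, and 159 of 163 did so in the other direction. Over all widths, 2210 distal peaks of the A-Fos table (99.5%) overlapped a distal peak of the zebrafish_CM table, and 2172 of the latter (26.1%) overlapped one of the former. The same 5 loci had the highest mean in each table. The highest was 14:20091634-20113155 (positions as deposited, on danRer11/GRCz11), a peak of 21521 bp whose nearest gene with a peak in the zebrafish_CM table is fmr1, the gene of an RNA-binding translational regulator, 54083 bp away. Its values were 6261 and 7774 in gata4:EGFP+, 10126 and 12435 in myl7:nucDsRed+, 5086 and 17449 with junba and 5017 and 3165 with junbb. It was high in every library, with junba replicate 2 highest and junbb replicate 2 lowest. In the A-Fos table it stood at 8546, 6790 and 4666 in A-Fos (+) and 4966, 2449 and 4095 in A-Fos (-) libraries, so the groups overlapped. The next was 2:19447085-19487040, the widest of all, near zfyve9a, followed by 17:47051727-47069022, 10:16796948-16804030 and 15:14763657-14775032. None of the 5 passed the test described below in any comparison.

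Distal peaks also occurred in tight runs. When neighbouring distal peaks up to 12.5 kb apart were joined, 2912 of 8331 (34.95%) lay in a run of at least 2 and 1188 (14.3%) in a run of at least 3. Assigned peaks, joined in the same way, had 35.2% and 9.28%. Runs of 6 or more numbered 27 for distal and 5 for assigned peaks, and the longest held 19 against 8. Of the distal peaks of the A-Fos table, 30.1% lay in runs of at least 2 and 16.7% in runs of at least 3, against 19.8% and 2.84% of assigned peaks, with 22 against 0 runs of 6 or more. Wide peaks were part of this: 114 of 163 (69.9%) and 119 of 166 (71.7%) lay in runs of at least 3. The comparison of runs of at least 2 depended on the joining distance. With 5 kb, 18.2% of distal and 25.3% of assigned peaks of the zebrafish_CM table lay in runs of at least 2, and with 25 kb 49.8% and 47.1% did. Runs of at least 3 held more distal than assigned peaks at each distance, 5.28% against 3.96% and 26.1% against 17.6%.

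The longest runs recurred between the tables. The first in both was 14:28777896-28810693, with 19 peaks in the zebrafish_CM table and 18 in the A-Fos table over 32797 bp, 232825 bp from the start of hmmr, the hyaluronan-mediated motility receptor. Its summed values were low: 130 and 153 in gata4:EGFP+, 216 and 227 in myl7:nucDsRed+, 110 and 88 with junba and 174 and 78 with junbb. The myl7:nucDsRed+ libraries were highest, and 6 of its peaks had a mean of at least 10. Next came 4:26864038-26908932 with 16 peaks in both tables, 7:64597836-64658774 with 13 and 12, and 12:14322393-14398578 with 12, of which 9 peaks of the A-Fos table formed a run. The run on chromosome 7 held 4 wide peaks and much more signal, with sums of 5432 and 6522, 11319 and 12531, 4521 and 17200, and 5442 and 3534 in the 4 groups in the order above. Its pattern over libraries was that of the highest peak, with junba replicate 2 highest and junbb replicate 2 lowest. The run 10:12052063-12092313 with 9 peaks was the fifth in the zebrafish_CM table, and 16:15653643-15691592 with 10 peaks, 7 of them wide, was the fourth in the A-Fos table.

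Along the genome, the share of distal peaks among all nuclear peaks of a chromosome ran from 45.6% on chromosome 2 to 57.5% on chromosome 15 in the zebrafish_CM table. Their density, per Mb between the first and last peak, ran from 3.65 on chromosome 4 to 7.62 on chromosome 23, and chromosome 4 also had the lowest density of assigned peaks, at 3.78 per Mb. In the A-Fos table the share was lowest on chromosome 1 (28.2%) and highest on chromosome 4 (44.8%). Wide distal peaks were unevenly spread, from 0 on chromosome 1 to 19 on chromosome 7 in the zebrafish_CM table and from 0 to 20 on the same chromosomes in the A-Fos table.

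The share of a library's nuclear signal that lay in distal peaks does not depend on the size factors. It was 52.2% and 53.2% in gata4:EGFP+, 52.1% and 52.3% in myl7:nucDsRed+, 39.3% and 51.7% with junba and 43.1% and 37.2% with junbb. Both junb groups lay below both sorted groups, and the junba replicates were farther apart than those of any other group in this table. An exact permutation test over the 4 groups gave p = 0.162. Without peaks of 2000 bp or wider, the share was 43.5% ± 0.309 for gata4:EGFP+, 36.9% ± 0.655 for myl7:nucDsRed+, 29.5% ± 0.463 with junba and 30.5% ± 1.29 with junbb (SD, n = 2). The same exact permutation test then gave p = 0.0190. Leaving out the wide peaks was not planned and was chosen after the data were seen, so this p-value is descriptive only. The gata4:EGFP+ libraries were then highest and apart from all others, the myl7:nucDsRed+ libraries next, and the junba and junbb libraries overlapped. Between single pairs of groups 2 against 2 libraries allow no p under 0.333, which the pairs with myl7:nucDsRed+ reached. Differences from myl7:nucDsRed+ were 6.52 percentage points for gata4:EGFP+, -7.45 for junba and -6.41 for junbb.

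**Figure D2:**
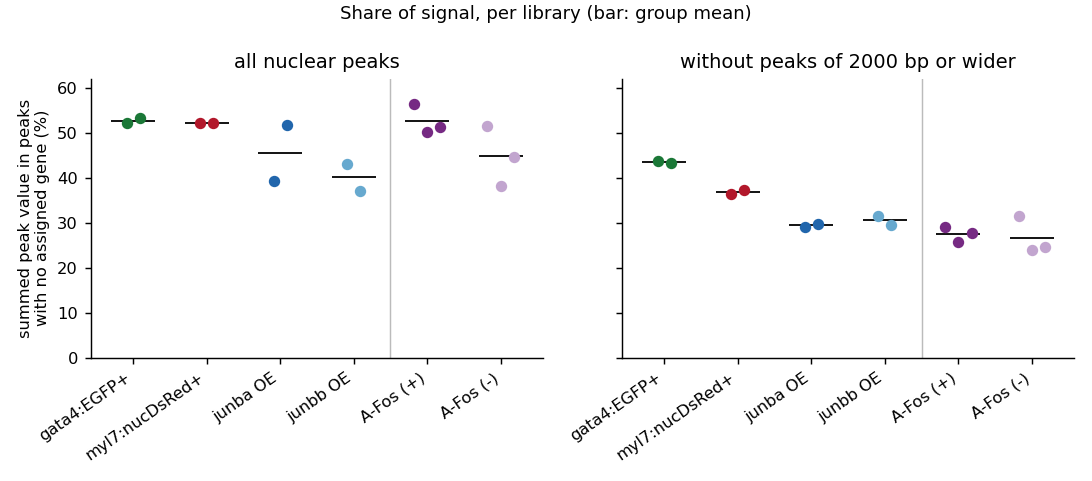
Points give the percent of summed nuclear peak values that lies in distal peaks (vertical axis) for each library by group (horizontal axis), with all peaks at left and without peaks of 2000 bp or wider at right, and bars give group means. At right the gata4:EGFP+ libraries stand at a mean of 43.5%, above myl7:nucDsRed+ at 36.9%, junba at 29.5% and junbb at 30.5%.

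In the A-Fos libraries the share was 56.4%, 50.2% and 51.4% with and 51.5%, 38.3% and 44.6% without A-Fos. The groups overlapped, and the difference of 7.83 percentage points gave p = 0.3 in a two-sided exact permutation test, where 3 against 3 libraries allow no p under 0.1. Without the wide peaks the difference was 0.819 points (p = 0.8, same exact permutation test).

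Wide and narrow distal peaks differed in how they varied over libraries. The summed value of the wide ones was 123541 and 146225 in gata4:EGFP+, 236918 and 229531 in myl7:nucDsRed+, 108160 and 305706 with junba and 134137 and 80340 with junbb. Per kb of peak this was 145 ± 17.3, 251 ± 5.62, 223 ± 150 and 115 ± 40.9 (SD, n = 2), so the wide peaks were higher in myl7:nucDsRed+ than in gata4:EGFP+ cells and the junba libraries were far apart, at 116 and 329 per kb. Narrower distal peaks gave 110 ± 2.04, 96.8 ± 3.52, 72.9 ± 2.27 and 75.8 ± 1.41 per kb, with close replicates and the gata4:EGFP+ group highest. Replicate 2 was above replicate 1 in 144 of 163 wide peaks with junba (2.83 times its sum), 1 with junbb (0.599 times), 126 in gata4:EGFP+ (1.184 times) and 48 in myl7:nucDsRed+ (0.969 times), so the wide peaks moved mostly one way in the junb groups and less so in the others. They held 32.9% of the distal signal in gata4:EGFP+, 49.0% in myl7:nucDsRed+, 49.9% with junba and 35.5% with junbb on average.

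In the A-Fos table the wide distal peaks summed to 167746, 129798 and 125066 with and 104730, 56643 and 90710 without A-Fos. Every A-Fos (+) library lay above every A-Fos (-) library, with a ratio of means of 1.68 (two-sided exact permutation test, p = 0.1, the smallest possible). The sum over narrower distal peaks had a ratio of 1.06, with overlapping groups (p = 0.7, same exact permutation test).

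**Figure D3:**
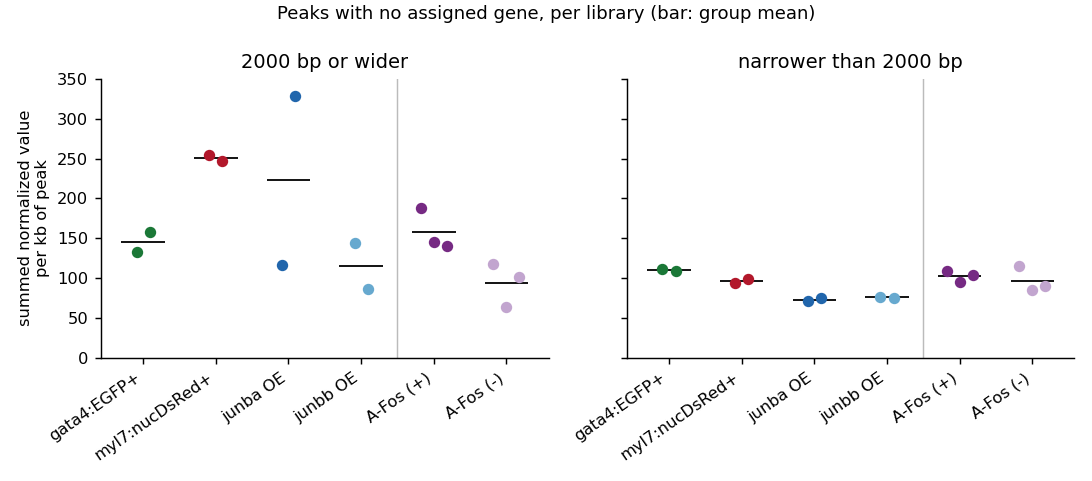
Points give the summed normalized value per kb of peak (vertical axis) for each library by group (horizontal axis), for distal peaks of 2000 bp or wider at left and for narrower ones at right, and bars give group means. The wide peaks average 251 per kb in myl7:nucDsRed+ and 145 in gata4:EGFP+ and spread widely in junba, while the narrower peaks average 110 in gata4:EGFP+ and 72.9 in junba with close replicates.

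Single peaks were tested with limma on log2(value + 5) over all nuclear peaks with a mean of at least 10. A peak is called where the p-value, adjusted by the method of Benjamini and Hochberg over all tested peaks, is under 0.05. Of the distal peaks, 6904 of 8331 (82.9%) passed this filter in the zebrafish_CM table and 1958 of 2220 (88.2%) in the A-Fos table, against 95.1% and 98.4% of assigned peaks. A peak high in 1 group may pass through that group alone, so the counts below describe the peaks that passed and not all distal peaks. Regeneration, junba and junbb are each compared with the same 2 myl7:nucDsRed+ libraries. Fold changes are on the log2(value + 5) scale, which understates changes of low peaks. The p-values measure the spread between pools of hearts within groups. In the zebrafish_CM table all 4 groups share one estimate of this spread per peak. The p-values for regeneration thus also carry the spread of the junb libraries. In whole samples, fewer cells with an open site and a less open site in each cell cannot be told apart.

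More distal peaks were called higher than lower in regenerating cells, and most were not called. In gata4:EGFP+ against myl7:nucDsRed+ libraries, 1404 of 6904 (20.3%) were called higher, where 12.3% of all tested peaks were, and 362 (5.24%) lower, where 6.61% of all were. Among promoter peaks, those within 500 bp of a gene start, 2.57% were higher and 7.78% lower, and among other assigned peaks 12.1% and 7.89%. The median log2 difference was 0.18 over distal peaks and -0.06 over all tested peaks. The calls rest on the number of libraries: the 1404 became 407 and 387 without gata4:EGFP+ replicate 1 or 2 and 745 and 794 without myl7:nucDsRed+ replicate 1 or 2, and the 362 became 79, 63, 128 and 98, where the single library left in a group is assumed to vary like the others. In all 4 of these fits 253 were called higher and 25 lower. With library totals made equal the split was 1638 higher and 134 lower, beside 2163 and 300 of all 14776 tested peaks. Centred on promoter peaks it was 1726 and 183, beside 2322 and 436. Only with a mean of at least 30 did the median over distal peaks turn, to -0.13 beside -0.21 over all tested peaks. Of 2411 distal peaks 225 were then called higher and 147 lower, beside 352 and 488 of all 7289 tested.

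Calls in regeneration varied with width but little with distance. Called higher were 12.0% of distal peaks under 200 bp, 23.4% of those from 200 to under 400 bp, 20.8% from there to under 800 bp, 4.79% from there to under 2000 bp and 0% of those of 2000 bp or wider. Of the 163 wide peaks 9 (5.52%) were called lower by limma, near the 5.24% of all distal and 6.61% of all tested peaks, and 0 higher. The shared spread of the wide peaks includes that of the junba libraries, which lay far apart. At an unadjusted p under 0.05, 34 wide peaks (20.9%) were lower, beside 11.1% of all distal and 14.2% of all tested peaks, and 0 higher. By distance the share called higher was 19.3% within 20 kb of a listed gene start, 20.6% from 20 to 100 kb and 20.8% beyond. By chromosome it ran from 12.4% on chromosome 25 to 26.97% on chromosome 24, and the share called lower from 2.49% on chromosome 24 to 11.3% on chromosome 4.

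**Figure D4:**
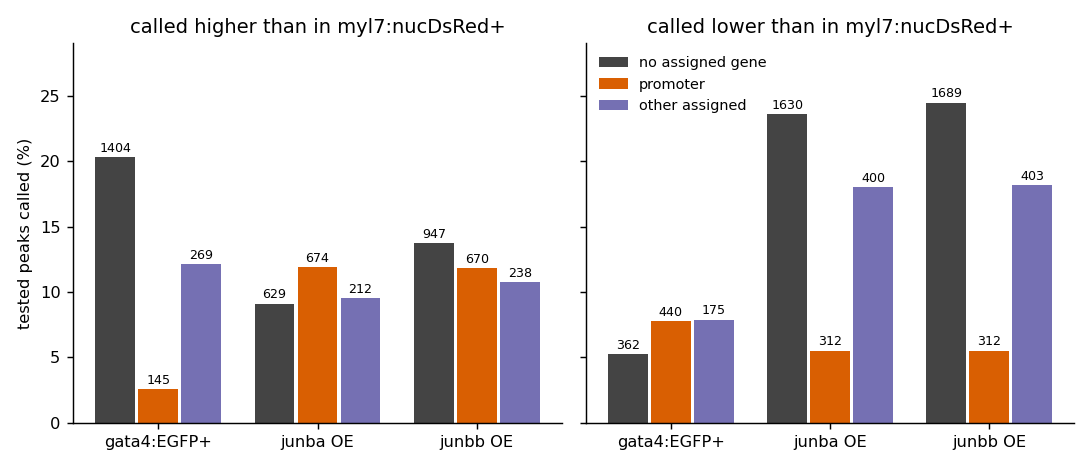
Bars give the percent of tested peaks called higher (left) and lower (right) than in myl7:nucDsRed+ libraries (vertical axis) in gata4:EGFP+, junba OE and junbb OE (horizontal axis), for distal, promoter and other assigned peaks, with the number of peaks above each bar. In gata4:EGFP+ 20.3% of distal peaks are higher against 2.57% of promoter peaks, and in the junb groups 23.6% and 24.5% of distal peaks are lower against 5.52% of promoter peaks in each.

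Among called distal peaks whose libraries did not overlap between the groups and whose mean was at least 29.5, the median of tested peaks, the 6 largest rises in regeneration came from peaks of 424 to 544 bp. The first, 20:52977067-52977491, lies 9401 bp from the start of gata4, a zinc finger factor of heart development. Its values were 275 and 227 in gata4:EGFP+, 14 and 22 in myl7:nucDsRed+, 0 and 0 with junba and 8 and 9 with junbb. It was high in the gata4:EGFP+ libraries alone, by 3.49 ± 0.38 on the log2 scale over myl7:nucDsRed+ (SE, limma adjusted p = 1.11e-05). These cells carry a reporter transgene driven by gata4 regulatory sequence and were sorted by it. The part of the transgene and of the sort in this value was not tested. The second, 16:24922783-24923327, stood at 170 and 141 against 10 and 10, with 7 to 20 in the 4 junb libraries, a log2 rise of 3.41 ± 0.39 (limma adjusted p = 2.08e-05). The peaks near snx19b (15:17525647-17526117), a sorting nexin gene, near uba1 (23:20816216-20816679), the gene of the ubiquitin-activating enzyme, and near si:ch211-260p3.6 (4:17375743-17376282) rose by 3.17 ± 0.44, 3.12 ± 0.38 and 3.10 ± 0.41. None of these 5 was called higher in junba or junbb.

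The remaining one, 22:15892205-15892653, lies 5792 bp from klf2a, the gene of a Krüppel-like factor known from endocardium and endothelium, where it responds to blood flow. Its values were 50 and 67 in gata4:EGFP+, 0 and 5 in myl7:nucDsRed+, 33 and 59 with junba and 64 and 87 with junbb. It was near 0 in myl7:nucDsRed+ libraries alone. Its log2 rise was 3.15 ± 0.39 in regeneration, 2.80 ± 0.39 in junba and 3.49 ± 0.39 in junbb (limma adjusted p = 5.68e-05, 6.12e-05 and 4.44e-06). Peaks assigned to endothelial and endocardial marker genes, found for 7 of 10 genes with klf2a among them, summed to 187 and 207, 97 and 100, 268 and 259, and 472 and 465 in the same order of groups, and their part in this and the following results was not tested.

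Among peaks chosen by the same limits, the 6 largest falls in regeneration were at 4:42760604-42760831 and at peaks near zdhhc16a, jun, oscp1b, pbx1b and klf6b. The peak near jun, an AP-1 subunit, at 20:15341475-15341763 and 211038 bp from its start, had 11 and 6 in gata4:EGFP+, 71 and 61 in myl7:nucDsRed+, 26 and 26 with junba and 22 and 19 with junbb. It was lowest in gata4:EGFP+ and highest in myl7:nucDsRed+ libraries, with log2 differences of -2.42 ± 0.36, -1.19 ± 0.36 and -1.48 ± 0.36 (limma adjusted p = 0.000210, 0.0194 and 0.00419). The peak inside pbx1b, a homeodomain factor gene, at 6:2308494-2308952 had 20 and 25, 122 and 137, 35 and 24, and 10 and 18, and the peak near klf6b, a Krüppel-like factor gene, at 2:48057984-48058381 had 13 and 19, 106 and 88, 13 and 16, and 20 and 17. Both were high only in the myl7:nucDsRed+ libraries and were called lower in all 3 comparisons. The first, 4:42760604-42760831, had 8 and 9 in gata4:EGFP+ libraries, 79 and 72 in myl7:nucDsRed+, 12 and 75 in junba and 93 and 96 in junbb, so its junba replicates were far apart. All 12 peaks were chosen for large called changes with groups apart in these same libraries, so a fit without 1 library is no independent check of them.

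**Figure D5:**
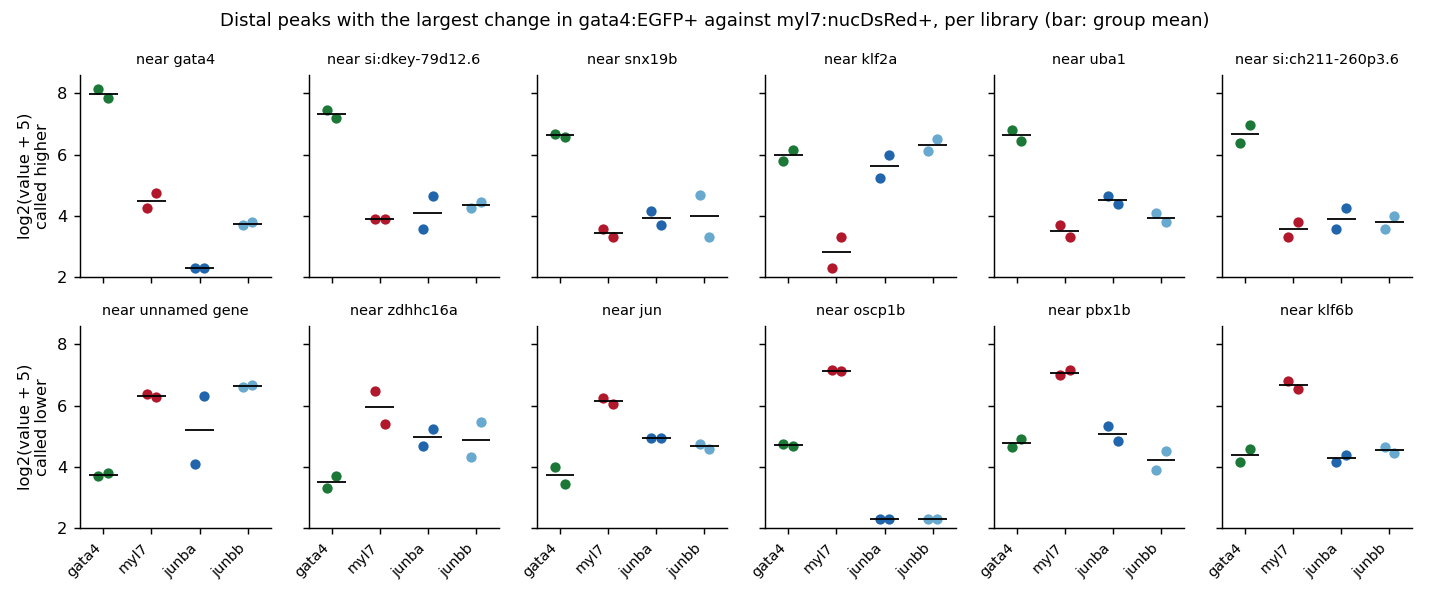
Points give log2(value + 5) per library (vertical axis) in gata4:EGFP+, myl7:nucDsRed+, junba and junbb libraries (horizontal axis) for the 6 named distal peaks with the largest rise (top) and the 6 with the largest fall (bottom) in regeneration, each titled by its neighbouring gene, and bars give group means. The peak near gata4 is high in gata4:EGFP+ libraries alone, the peak near klf2a is low in myl7:nucDsRed+ libraries alone, and the peak near oscp1b is listed at 0 in all 4 junb libraries.

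Distal peaks were also grouped by neighbour, the gene of the nearest assigned peak in the same table, for 5 gene lists. A neighbour is a position and not a proven target. The counts are to be read against 12.3% higher and 6.61% lower of all tested peaks and 20.3% and 5.24% of distal peaks. The lists were chosen with earlier results of these data known, and no list was tested. Next to genes of the extracellular matrix and integrins lay 35 distal peaks, of which 25 passed the mean filter. Of these 25, 13 (52%) rose in regeneration and 1 (4%) fell, with a median log2 difference of 1.26 beside -0.06 over all tested peaks. A peak high in gata4:EGFP+ alone may have passed the filter through that group, so these shares describe only the peaks tested. Inside col6a1, a collagen VI chain gene, 11:34026902-34027176 had 46 and 51 in gata4:EGFP+ and 6 and 1 in myl7:nucDsRed+ libraries (log2 2.72 ± 0.49, limma adjusted p = 0.000921). Inside lamc1, a laminin chain gene, 2:35953498-35953707 had 32 and 28 against 2 and 0 (2.56 ± 0.44), and near col1a1a, a collagen I chain gene, 3:23127357-23127598 had 35 and 29 against 2 and 2 (2.40 ± 0.41). In each the gata4:EGFP+ libraries were far above. The peak inside col5a2a, a collagen V chain gene, at 9:42679310-42679708 rose from 8 and 8 to 37 and 59 in gata4:EGFP+, 31 and 47 with junba and 47 and 22 with junbb, higher in all 3 groups. Peaks assigned to epicardial and fibroblast marker genes, found for 3 of 7 genes, summed to 88 and 98 in gata4:EGFP+ and 38 and 35 in myl7:nucDsRed+ libraries, and those of leukocytes, for 2 of 6 genes, to 76 and 71 against 26 and 20. Their part in these results was not tested.

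Next to cytokine and stress genes, 14 of 52 tested peaks (26.9%) rose in regeneration, beside 20.3% of distal and 12.3% of all tested peaks, and 0 fell by limma (median 0.39). The highest of them, 11:6567286-6568100 near gadd45ba, a stress-induced growth arrest gene, had 286 and 202 against 55 and 91 (1.69 ± 0.25, limma adjusted p = 0.000196). The peak near egr3, an immediate early factor gene, at 8:50693598-50694151 had 100 and 82 against 19 and 20 (1.96 ± 0.38). Next to AP-1 genes 5 of 17 (29.4%) rose and 1 (5.88%) fell, the jun peak above. Another peak near jun, 20:15409498-15409857, was among the rises (35 and 26 against 14 and 9, 1.11 ± 0.38). The peak 1:51781295-51781894 near junba had 106 and 72 against 15 and 15 (2.21 ± 0.38, limma adjusted p = 0.000607), and the peak near fosb at 18:36752407-36753252 had 120 and 128 against 59 and 39 (1.28 ± 0.27). In both, the groups were apart.

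Next to cardiac transcription factor genes, a list that also holds the natriuretic peptide genes nppa and nppb, 12 of 53 (22.6%) rose and 3 (5.66%) fell, close to the 20.3% and 5.24% of all distal peaks (median -0.05). The falls were next to nppb, gata4 and tead3b. The one next to gata4, 20:53135595-53135951, lay 167895 bp from its start (19 and 19 against 60 and 36, -1.10 ± 0.34). Rises were also found next to gata4 and tead3b. Besides the gata4 peak at 20:52977067-52977491, the rises included 15:27393554-27393899 near tbx2b, a T-box repressor gene (43 and 36 against 3 and 4, 2.39 ± 0.44). Others were 1:38257278-38257654 near hand2 (48 and 34 against 6 and 6, 2.05 ± 0.46) and 14:24185112-24185562 near nkx2.5 (65 and 40 against 8 and 13, 1.88 ± 0.42), both factors of heart formation. Next to sarcomere genes 1 of 26 (3.85%) rose and 5 (19.2%) fell, beside 12.3% and 6.61% of all tested peaks (median 0.01). The falls were near ldb3a, a Z-disc protein gene, ttn.1 and mybpc3, which encode titin and myosin-binding protein C, tnnt2a, a cardiac troponin T gene, and hspb7, a small heat shock protein gene. The peak inside ldb3a at 13:22482004-22482199 had 14 and 8 in gata4:EGFP+, 59 and 48 in myl7:nucDsRed+, 6 and 4 with junba and 3 and 3 with junbb. It was high in the uninjured sorted cells alone, with log2 differences of -1.89 ± 0.42, -2.55 ± 0.42 and -2.86 ± 0.42.

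Against myl7:nucDsRed+ cells, calls of distal peaks with junba or junbb were more often lower than higher, and most peaks were not called. With library totals made equal this held for junba but not for junbb. In junba 629 (9.11%, background 10.3%) were called higher and 1630 (23.6%, background 15.9%) lower, and in junbb 947 (13.7%, background 12.6%) higher and 1689 (24.5%, background 16.3%) lower. Among promoter peaks 11.9% were higher and 5.52% lower in each. The median log2 difference over distal peaks was -0.34 in junba and -0.31 in junbb, beside -0.07 and -0.02 over all tested peaks. Without myl7:nucDsRed+ replicate 1 or 2 the lower count in junba was 1044 and 769, and in junbb without myl7:nucDsRed+ replicate 2 it was 967. The higher count in junba was 371 without myl7:nucDsRed+ replicate 1 and 376 without junba replicate 2. Without junbb replicate 2, 449 were higher and 881 lower in junbb. In all such fits 192 higher and 535 lower calls were kept in junba and 323 and 649 in junbb. With equal totals the junbb split was 1198 higher and 1150 lower, beside 2661 and 1584 of all 14776 tested peaks. The median was then -0.09 over distal and 0.24 over all tested peaks.

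Wide and genic distal peaks took part in the falls. Of the 163 wide peaks 34 (20.9%) were lower in junba, beside 23.6% of all distal and 15.9% of all tested peaks. In junbb 60 (36.8%) were lower, beside 24.5% and 16.3%. By limma 0 wide peaks were higher in either, also at an unadjusted p under 0.05. In junba 27.9% of distal peaks inside listed gene bodies were lower against 21.6% of those outside, and 27.7% within 20 kb of a listed gene start against 19.97% beyond 100 kb. In junbb these shares were 27.03% against 23.2% and 26.7% against 23.3%. By chromosome the lower share in junba ran from 16.2% on chromosome 24 to 31.1% on chromosome 4, and in junbb from 16.5% on chromosome 14 to 32.5% on chromosome 25.

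Within the same limits, the distal peaks with the largest rises in junba or junbb were high in both groups, which share their control libraries. The peak 14:1026650-1027360, 56152 bp from acsl1b, a long-chain acyl-CoA synthetase gene, had 15 and 16 in gata4:EGFP+, 8 and 9 in myl7:nucDsRed+, 93 and 151 with junba and 162 and 164 with junbb. Its log2 rise was 3.20 ± 0.32 in junba and 3.64 ± 0.32 in junbb (limma adjusted p = 1.58e-06 and 4.17e-07), and both junb groups were apart from both sorted groups. The peak near rplp2l, a ribosomal protein gene, at 7:13046836-13047472 had 91 and 88 in junba and 63 and 74 in junbb libraries against 1 to 9 in the 4 sorted ones (3.37 ± 0.41 and 3.00 ± 0.41). The peak inside mtss1la, a gene of an actin- and membrane-binding protein, at 18:14798317-14798855 had 79 and 153 in junba, 154 and 153 in junbb, 1 and 19 in myl7:nucDsRed+ and 25 and 30 in gata4:EGFP+ libraries (3.26 ± 0.44 and 3.72 ± 0.44). Peaks near txndc5, an endoplasmic reticulum disulfide isomerase gene, inside tiam1b, a Rac exchange factor gene, near stim2b, a calcium sensor gene, and inside afap1l1b, a gene of an actin filament-associated protein, were called higher in both, by 3.03, 3.01, 2.81 and 2.46 in junba and 3.10, 3.55, 3.32 and 3.19 in junbb.

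Among the largest falls within these limits, 4:31347787-31348654 inside si:rp71-5o12.3 had 133 and 112 in gata4:EGFP+, 379 and 281 in myl7:nucDsRed+, 12 and 0 with junba and 64 and 18 with junbb. It was highest in myl7:nucDsRed+ libraries, with log2 differences of -5.17 ± 0.46 in junba and -3.06 ± 0.46 in junbb (limma adjusted p = 3.21e-07 and 7.20e-05). The peak 13:25540691-25541086 near sec23ip, a gene of a secretory vesicle coat partner, had 91 and 73 in myl7:nucDsRed+ libraries, 11 and 0 with junba and 10 and 14 with junbb (-3.27 ± 0.46 and -2.36 ± 0.46). The peak 5:72211512-72211809 near fabp1a, a fatty acid-binding protein gene, had 98 and 106 in myl7:nucDsRed+ libraries, 20 and 18 with junba and 6 and 9 with junbb (-2.16 ± 0.34 and -3.11 ± 0.34). In both the gata4:EGFP+ libraries lay between, at 20 and 40 and at 47 and 43.

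A stretch of chromosome 16 was listed at 0 in all 4 junb libraries. The peak 16:36308885-36309217, 215275 bp from oscp1b, had 22 and 21 in gata4:EGFP+ and 137 and 134 in myl7:nucDsRed+ libraries and 0 in every junba and junbb library (limma adjusted p = 1.89e-07 and 3.77e-07, with no fold given against 0). The peaks 16:36307665-36308009 and 16:36383198-36383758 were likewise at 0 in these 4 libraries and called lower in both comparisons. In all, 14 peaks of the zebrafish_CM table were at 0 in these 4 libraries, 13 of them distal, and the 8 with a mean of at least 20 in the other libraries all lay between 36268105 and 36454534 on chromosome 16, where the table holds no other peak. This group was picked out after the values were seen. Summed over the 8 peaks, the values were 110 and 141 in gata4:EGFP+ and 721 and 670 in myl7:nucDsRed+ libraries, and all 8 were called lower in regeneration as well (log2 -2.41 to -1.95). The nearest peaks outside, 174 kb before and 294 kb after, were not at 0 in any library. The cause was not tested.

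Counts next to the 5 gene lists are set here against the shares of all tested peaks, 15.9% lower and 10.3% higher in junba and 16.3% lower and 12.6% higher in junbb, and of distal peaks, 23.6% and 9.11%, and 24.5% and 13.7%. No test of a list was made. Of 26 tested peaks next to sarcomere genes, 12 (46.2%) fell and 1 (3.85%) rose in junba and 13 (50.0%) fell and 3 (11.5%) rose in junbb, with medians of -0.85 and -1.09. The peak inside ttn.1 at 9:42816928-42817267 had 25 and 26 in gata4:EGFP+ libraries, 85 and 99 in myl7:nucDsRed+, 12 and 6 with junba and 20 and 10 with junbb (-2.82 ± 0.38 and -2.32 ± 0.38). The peak inside mylk3, a cardiac myosin light chain kinase gene, at 7:41851523-41851713 had 50 and 51 in myl7:nucDsRed+ libraries, 11 and 2 with junba and 4 and 4 with junbb (-2.39 ± 0.43 and -2.62 ± 0.43). Both were well apart from the control libraries. Against this, the peak near tnnt2a at 23:5773433-5774039 had 20 and 8 in myl7:nucDsRed+ libraries, 43 and 71 with junba and 109 and 77 with junbb (1.74 ± 0.37 and 2.42 ± 0.37). Peaks assigned to cardiomyocyte marker genes, found for 6 of 9 genes, summed to 310 and 285 in gata4:EGFP+ libraries, 699 and 821 in myl7:nucDsRed+, 351 and 178 with junba and 180 and 198 with junbb, and their part in these falls was not tested.

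Next to cardiac transcription factor genes 13 of 53 (24.5%) fell and 1 (1.89%) rose in junba and 12 (22.6%) fell and 4 (7.55%) rose in junbb. The shares that fell were near those of all distal peaks, and the falls include 2 peaks next to nppb in junba and 3 in junbb. The peak near nppb, a natriuretic peptide gene, at 8:48414805-48415071 had 14 and 6 in gata4:EGFP+ libraries, 57 and 61 in myl7:nucDsRed+, 7 and 12 with junba and 8 and 2 with junbb, and was called lower in all 3 comparisons (-2.15 ± 0.44, -2.16 ± 0.44 and -2.75 ± 0.44). Next to AP-1 genes 1 of 17 (5.88%) rose and 3 (17.6%) fell in junba, the latter near the share of all tested peaks, and 4 (23.5%) rose and 5 (29.4%) fell in junbb. Around jun the directions were mixed: 20:15531667-15532132 rose from 7 and 15 to 52 and 63 with junba and 86 and 93 with junbb (2.01 ± 0.36 and 2.61 ± 0.36), while 20:15341475-15341763 was lower in both, as given above. Inside atf3, an AP-1 relative induced by stress, 20:37800105-37800799 went from 76 and 49 to 13 and 18 with junba and 22 and 7 with junbb (-1.70 ± 0.39 and -1.88 ± 0.39). The peaks near the junba gene that rose in regeneration were not called with junba or junbb.

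Next to matrix and integrin genes 5 of 25 (20%) rose and 5 (20%) fell in junba, beside 10.3% and 15.9% of all tested peaks, and 6 (24%) rose and 3 (12%) fell in junbb, beside 12.6% and 16.3%. Next to cytokine and stress genes 8 of 52 (15.4%) rose and 11 (21.2%) fell in junba and 9 (17.3%) rose and 15 (28.8%) fell in junbb. The peak near itga5, a fibronectin receptor subunit gene, at 23:33586858-33588235 went from 280 and 326 in myl7:nucDsRed+ libraries to 99 and 47 with junba and 80 and 73 with junbb (-2.06 ± 0.26 and -1.92 ± 0.26). The peak inside stat3, the gene of a cytokine signal transducer, at 3:17084259-17084488 went from 52 and 58 to 20 and 0 with junba and 5 and 6 with junbb (-2.42 ± 0.52 and -2.51 ± 0.52). Both groups lay below the controls at both peaks.

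Between junba and junbb themselves 4 distal peaks were called, 2 higher in junba (background 0.0541%) and 2 lower (background 0.0338%). At an unadjusted p under 0.05 by limma, 300 (4.35%) and 508 (7.36%) of 6904 were higher and lower. These shares were near those of all 14776 tested peaks, 4.03% and 6.08%. The peak 17:36988205-36989022, inside dnmt3ab, a DNA methyltransferase gene, had 71 and 65 in gata4:EGFP+ libraries, 33 and 39 in myl7:nucDsRed+, 14 and 14 with junba and 78 and 60 with junbb (-1.95 ± 0.32, limma adjusted p = 0.00640). It kept its call in 2 of the 4 fits that leave out 1 library. The other 3, named after their values were seen, were 20:46874144-46874487, listed at 0 in all gata4:EGFP+ and junbb libraries and at 26 and 79 with junba, 24:9179575-9179880 (2 and 0 with junba, 36 and 29 with junbb) and 3:6095304-6095747 (26 and 45 against 5 and 3). Without junba replicate 1 the counts were 94 and 104, without junba replicate 2 they were 10 and 15, and without either junbb library they were 0 and 0, so no call held in all 4 fits.

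Few runs of distal peaks had all tested peaks called one way, and runs of assigned peaks were not counted for comparison. The shares by run are to be read beside the 20.3% of distal and 12.3% of all tested peaks called higher in regeneration. Called higher in regeneration were 21.8% of peaks standing alone, 19.2% of those in runs of 2, 16.8% in runs of 3 to 5 and 8% in runs of 6 or more, and the last class held 64 wide peaks among its 150 tested. Among 239 runs with at least 3 tested peaks, all tested peaks were called higher in 0 and lower in 2 for regeneration, higher in 0 and lower in 13 for junba, and higher in 4 and lower in 16 for junbb. Among the runs lower with junba or junbb, 11:42332187-42337966 inside slmapa, a gene of a sarcolemma-associated protein, summed to 102 and 99 in gata4:EGFP+ libraries, 111 and 132 in myl7:nucDsRed+ libraries, 32 and 10 with junba and 23 and 15 with junbb, and the run 1:35514490-35521531 inside gab1, a signalling adaptor gene, to 281 and 271, 248 and 318, 78 and 107, and 80 and 75. The 2 runs lower in regeneration were 16:36448643-36454534, inside the stretch at 0 in the junb libraries, and 4:31347787-31349921. Both were also lower with junba and junbb. The 4 runs higher with junbb lay near mn1a, inside git2b, near plpp2a and near krt18, a keratin gene. The last, 23:10291055-10313898 with 4 peaks, summed to 176 and 134 in gata4:EGFP+ libraries, 40 and 29 in myl7:nucDsRed+, 81 and 85 with junba and 165 and 105 with junbb. It was thus lowest in the myl7:nucDsRed+ libraries.

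With A-Fos, no distal peak passed the test. Of the 1958 tested, 0 were called higher and 0 lower by limma (background 0% each), and 89 were higher and 34 lower at an unadjusted p under 0.05, against 138 and 62 of all 6012 tested peaks. Wide peaks made up 34 of the 89 and 0 of the lower ones. The wide peaks were above 0 in 162 of 166, with a median log2 difference of 0.60, and the narrower ones had a median of -0.04. The 95% interval of a log2 difference, not adjusted for the number of peaks, reached 0.72 to either side for the median peak. Smaller differences were thus not detectable in most peaks at this depth and number of libraries. Larger ones, up to 1.44 in distal peaks, were not called after adjustment either, so changes above 0.72 are not excluded. The smallest unadjusted p, 0.000544, fell at 16:2271953-2272942 near hace1, a ubiquitin ligase gene, with 107, 76 and 43 in A-Fos (+) and 33, 17 and 26 in A-Fos (-) libraries (log2 1.36 ± 0.33, limma adjusted p = 1). The groups did not overlap there, and the peak was chosen for its p. None of the distal peaks next to AP-1 genes (12 tested), cardiac transcription factor genes (4) or cytokine and stress genes (24) was called. No distal peak of this table had a sarcomere or matrix gene as its neighbour. Only genes with an assigned peak in this table can be neighbours, so distal peaks near genes without one are not counted.

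The distal peaks called in the zebrafish_CM table were then followed into the A-Fos table, whose libraries are separate. Of the 1404 higher in regeneration 209 (14.9%) overlapped a distal peak there, as did 73 of the 362 lower ones (20.2%) and 1239 of the 5138 not called (24.1%). The next counts are over overlapping peaks tested in the A-Fos table, and a zebrafish_CM peak can overlap several of these. The difference with A-Fos was below 0 in 122 of 203 (60.1%) for peaks higher in regeneration. It was below 0 in 23 of 68 (33.8%) for those lower and in 553 of 1241 (44.6%) for those not called. The medians were -0.05, 0.22 and 0.06. Of the 203, 4 were lower and 5 higher with A-Fos at an unadjusted p under 0.05. For peaks higher in junba or junbb the shares below 0 were 62.3% and 63.0%, and for peaks lower in junba or junbb they were 27.7% and 25.1%. Wide peaks are among those called lower, and in regeneration 154 of the 163 are among those not called and 0 among those higher. With A-Fos 162 of 166 wide peaks were above 0, against 796 of 1792 narrower ones and 2969 of all 6012 tested peaks. Most narrower distal peaks were thus not above 0, but this count was not split by their call in the zebrafish_CM table. The peaks higher in regeneration hold no wide peak. Their share is to be read beside the narrower peaks as well as beside those not called. The part of width in these shares was not tested, and no test of the shares was made.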

How the data were processed

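Chromatin accessibility was measured by ATAC-seq in 14 libraries of 6 groups. Per the submitters' processing notes, the tools named are STAR 2.6.1d, Trimmomatic 0.36, DESeq, DESeq2 1.18.1, MACS2, Picard 2.18.16 and deepTools 2.5.7, with the builds danRer11 and GRCz11; the read shift, filters and peak thresholds are not given in the sources used here. The authors deposited one table per experiment with a normalized, background-corrected and rounded value per peak and library, treated here as a score and not as counts. The deposited tables also hold the fraction of each peak inside its assigned gene's body and the distance to that gene's start, as the authors' annotation gave them. Scaling to shared size factors sets the levels, so shares of a library's own signal are given beside them.

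Peaks with an empty gene field outside the mitochondrial genome were taken. Values were tested as log2(value + 5) with limma 3.58.1 (R 4.3.3, data.table version 1.17.8; trend and robust options) over all nuclear peaks with a mean of at least 10, 14776 and 6012 in the 2 tables, with Benjamini-Hochberg adjustment. The 4 groups of 2 libraries shared one estimate of the spread. Per-library sums and shares were compared by exact permutation tests (Python 3.11.15, NumPy 2.4.6, SciPy 1.17.1, pandas 2.3.3, Matplotlib 3.10.9). The fit was tested on simulated data. Named peaks are, per direction, the 6 with the largest log2 change (3 for junba against junbb) among called distal peaks with groups apart and a mean no lower than the tested peaks' median, and per table the 5 with the highest mean and the 5 longest runs; peaks beside listed genes were named as examples. A neighbour is the gene of the nearest assigned peak; of 652 and 241 assigned peaks with no gene name, 492 and 177 were matched to a symbol by gene ID. The distal peaks, gene lists and rules were chosen with earlier results of these data known. No genome was used, so no sequence is given. The labels give pools of 6 hearts per library and no further link between libraries.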

Additional observations from a re-analysis of the deposited data

How the results depend on the processing

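The difference in distal signal share between gata4:EGFP+ and myl7:nucDsRed+ was 0.500 percentage points and turned to -0.0637 with peaks of a mean of at least 10. Leaving out 1 library gave -0.0297 to 1.03. The difference between junba and junbb, 5.36 points, turned to -1.41 without the 1% of peaks with the highest mean, to -1.03 without wide peaks and to -0.0452 (log2) with equal weight per peak, and ran from -0.833 to 11.6 with 1 library left out. The between-group sum of squares over 4 groups, 215, became 267 and 251 without the highest 1% and without wide peaks, and then passed 0.05. The wide peaks and the fit without them were chosen after seeing the data.

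With a pseudocount of 1, 867 distal peaks were higher and 200 lower in regeneration, beside 1145 and 593 of all 14776 tested peaks. In that fit 1 distal peak was higher in junba than in junbb, beside 4 of all. With a mean of at least 30 the higher and lower counts were 225 and 147 in regeneration, 237 and 724 in junba, 320 and 757 in junbb, and 0 and 1 for junba against junbb, where fewer peaks were tested. Over all 7289 peaks tested there, the counts in the same order were 352 and 488, 864 and 1113, 896 and 1154, and 4 and 3. Regeneration-lower calls, 362 in the report, were 134 with equal totals, 591 with quantile normalization, 183 centred on promoter peaks and 726 with only the 2 groups fitted. Over all 14776 tested peaks these lower calls were 977 in the report and 300, 1418, 436 and 1694 in the same order. The fit of only the 2 groups gave 396 higher in junba, beside 939 of all tested peaks. It gave 1 higher in junba than in junbb, as did equal totals (1), and without a filter on low values 5 were lower in junba than in junbb. Equal totals moved the median of all peaks from -0.06 to 0.15 in regeneration, from -0.02 to 0.24 in junbb and from -0.00 to -0.24 with A-Fos. The cause of these changes was not tested.

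Leaving out each library in turn gave 387 to 794 higher and 63 to 128 lower in regeneration, 371 to 747 and 769 to 1795 in junba, 449 to 686 and 881 to 1275 in junbb, and 0 to 94 and 0 to 104 for junba against junbb. A-Fos counts were 0 in every alternative run.

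Replicate numbers were not treated as pairs. Correlations of same-numbered deviations were -0.03 to 0.02 in the zebrafish_CM table and 0.280, 0.256 and 0.0823 in the A-Fos table, where each library correlated best with its own number. With the replicate as a block the counts were 1385 and 358 in regeneration, 633 and 1631 in junba, 944 and 1688 in junbb, 2 and 4 for junba against junbb, and 0 with A-Fos. Of 40 named peaks 36 kept direction and call in every alternative run, and 0 of 517 values reversed. The named peaks were chosen for their calls and large changes in these same libraries, so these counts do not describe the other calls. An alternative that needs sequence motifs was not run, as no genome was given. Depth limits the lowest peaks: 12 to 623 distal peaks of a zebrafish_CM library were at 0.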

Other observations

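The A-Fos table holds 3 distal peaks in the stretch of chromosome 16 that was listed at 0 in the junb libraries. Their sums were 42, 47 and 0 in A-Fos (+) and 77, 40 and 1 in A-Fos (-) libraries, so 1 library of each group was at or near 0.

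The value of the mitochondrial peak was set against the summed value of wide and of narrower distal peaks over the libraries of each table, 4 relations in all. For wide peaks of the zebrafish_CM table Pearson's r was 0.675 over 8 libraries (exact permutation p = 0.0657, adjusted 0.265) and Spearman's rho 0.595 (exact permutation p = 0.132, adjusted 0.265), and r was 0.800 without the 2 libraries farthest from the median. For narrower peaks r was -0.639 (exact permutation p = 0.100), and 0.0185 without those 2. In the A-Fos table, over 6 libraries, r was 0.321 for wide peaks (exact permutation p = 0.503) and -0.0460 for narrower ones (exact permutation p = 0.947). None passed 0.05.

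Among distal peaks narrower than 2000 bp, chosen after their values were seen, the highest mean was at 17:53459459-53460060 near mycbp, a Myc-binding protein gene. Its values were 1041 and 1242 in gata4:EGFP+ libraries, 4115 and 2984 in myl7:nucDsRed+, 2087 and 4777 with junba and 1605 and 615 with junbb. It was called lower in regeneration (log2 -1.62 ± 0.50, limma adjusted p = 0.0280) and in junbb (-1.81 ± 0.50, adjusted p = 0.00949).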
